A study of Mus musculus with 2 samples.

Results

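The IGF binding proteins are secreted proteins named for holding insulin-like growth factors outside the cell, and their genes were followed here through the single-cell transcriptomes of digested mouse aortas. Igfbp2, Igfbp3, Igfbp4, Igfbp5, Igfbp6 and Igfbp7 were taken by name, and 5 of these 6 genes are columns of the table used, among 14714 genes in all; Igfbp3 is not analysed here. The library of interest was EC-iDKO_Apoe_KO, an inducible double knockout in endothelial cells on an Apoe knockout background, called the double knockout below. It was set against Apoe_KO, which carries the Apoe deletion alone. Both groups thus lacked Apoe, and both were fed a western diet for 12 weeks, which gives Apoe-deficient mice atherosclerosis. There was 1 library per genotype. The sources used here do not give the number, age or sex of the mice, nor the driver and timing of the endothelial deletion.

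IGF1 and IGF2 act through the receptor IGF1R, and the binding proteins carry these ligands, shield them from the receptor or release them when proteases cut the binding protein. Igfbp2 to Igfbp6 encode high-affinity binders. IGFBP7 binds IGFs weakly and is best known as a matrix protein of vessels and other connective tissue. In the arterial wall the family is made by smooth muscle, fibroblasts and endothelium in different mixtures.

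The promoters shown are those of the dominant transcript (Igfbp7) and of a pair of neighbouring genes whose transcripts peaked in different clusters (Igfbp2 and Igfbp5). They are RefSeq windows on GRCm38.p6 (the mm10 build), 250 bases before to 50 bases after an annotated start, 5′ to 3′ on the strand of the gene. Capitals mark GC boxes (GGGCGG, found on either strand) and E-boxes (CANNTG).
Igfbp7 (chr5:77407996-77408295, minus strand): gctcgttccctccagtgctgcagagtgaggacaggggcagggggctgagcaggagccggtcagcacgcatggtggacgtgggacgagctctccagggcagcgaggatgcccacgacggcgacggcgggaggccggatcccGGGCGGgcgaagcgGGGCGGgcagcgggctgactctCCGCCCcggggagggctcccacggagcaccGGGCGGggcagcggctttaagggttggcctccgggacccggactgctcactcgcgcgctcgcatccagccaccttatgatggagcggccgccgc
Igfbp5 (chr1:72874816-72875115, minus strand): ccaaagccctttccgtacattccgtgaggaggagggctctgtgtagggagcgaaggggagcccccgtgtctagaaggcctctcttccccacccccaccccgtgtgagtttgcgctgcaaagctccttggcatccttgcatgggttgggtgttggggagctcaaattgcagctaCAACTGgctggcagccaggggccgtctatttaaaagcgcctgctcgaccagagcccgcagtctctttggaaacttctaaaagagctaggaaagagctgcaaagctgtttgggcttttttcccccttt
Igfbp2 (chr1:72824230-72824529, plus strand): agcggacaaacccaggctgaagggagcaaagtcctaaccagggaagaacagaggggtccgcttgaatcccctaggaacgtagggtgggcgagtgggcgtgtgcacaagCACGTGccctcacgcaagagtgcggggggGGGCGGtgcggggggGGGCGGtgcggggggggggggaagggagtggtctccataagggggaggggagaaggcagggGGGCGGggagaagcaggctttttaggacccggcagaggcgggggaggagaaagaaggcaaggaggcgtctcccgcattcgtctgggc
The Igfbp7 window held 4 GC boxes and 33 CpG pairs, the Igfbp2 window 3 GC boxes and 18 CpG pairs, and the Igfbp5 window no GC box and 10 CpG pairs. GC boxes occur in 35.7% and E-boxes in 72.3% of all 32851 such windows, whose median number of CpG pairs is 7. The E-box was found once each in the Igfbp2 and Igfbp5 windows and was not among the letters of the Igfbp7 window. The Igfbp2 and Igfbp5 genes lie tail to tail on chromosome 1, Igfbp2 at 72824480 to 72852474 on the plus strand and Igfbp5 at 72858065 to 72874865 on the minus strand, 5590 bases apart with 0 annotated genes between them. Igfbp7 is on chromosome 5, Igfbp4 on chromosome 11 and Igfbp6 on chromosome 15.

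A count is a unique molecular identifier (UMI), 1 captured RNA molecule, read from its 3′ end, so that levels of different genes can be set side by side without scaling to length. The double knockout library had 6853185 UMIs in 5489 cells, with a median of 769 per cell. The Apoe knockout library had 13304762 UMIs in 2428 cells, with a median of 3770 per cell. Each Apoe knockout barcode was listed in 2 copies with identical counts and was counted once, and 5 barcodes occurred in both libraries. For each deposited class (EC, SMC, modEC, immune/inflam or fibroblast) or cluster, its cells' UMIs were added up in each library, and levels are given as counts per 1000000 UMIs of that population (CPM). Intervals are 95% and cover counting error only; neither mouse-to-mouse nor cell-to-cell spread is in them. With 1 library per genotype there is no test. A gene is called higher or lower where the ratio of double knockout to Apoe knockout CPM is at least 1.5-fold in either direction and its interval does not hold 1, among genes with at least 20 UMIs over both libraries, in populations of at least 50 cells in each. From knowledge of this line the deleted genes are Epn1 and Epn2. In the EC class Epn1 had 6 UMIs in the double knockout and 14 in the Apoe knockout (ratio 0.399, interval 0.126 to 1.11), and Epn2 had 32 UMIs in the double knockout and 23 UMIs in the Apoe knockout (ratio 1.30, interval 0.735 to 2.32), so a loss of either was not detectable at this depth, and 3′ tags outside a deleted part would not show it.

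Labels of several populations do not match their genes in full. Most cells of clusters 7, 8 and 10 carry the name modEC, while 86 of the 395 double knockout cells of cluster 7 are named SMC. Cluster 8 was led by Dcn, Lum and Timp1, matrix genes of modulated smooth muscle and fibroblasts. Cluster 10 was led by Ibsp and Spp1, with the cartilage genes Chad and Col2a1 among its next genes. The modEC clusters are therefore compared by number. Cluster 14, most of the fibroblast class, had summed CPM of 259 in the double knockout and 779 in the Apoe knockout for 7 fibroblast markers, below its 2252 in the double knockout and 4723 in the Apoe knockout for 5 pericyte markers; Pi16 and Clec3b were at 0 in the double knockout. Cluster 15 held 42784 CPM of 5 adipocyte markers in the double knockout and 0 in the Apoe knockout. The contractile smooth muscle list was at 6613 CPM or more in every cluster of both libraries. In the endothelial cluster 9 the median of its 7 genes stood at 57.7% of the SMC class level in the double knockout and 60.5% in the Apoe knockout, and in the macrophage cluster 13 at 64.7% in the double knockout and 24.0% in the Apoe knockout.

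Igfbp7 was the dominant family transcript. Over all cells it had 6337 UMIs (925 CPM) in the double knockout and 15836 UMIs (1190 CPM) in the Apoe knockout, 85.2% of the UMIs of the 5 genes in the double knockout and 89.4% in the Apoe knockout. Igfbp5 followed with 91.1 CPM in the double knockout and 66.3 in the Apoe knockout, then Igfbp4 with 50.0 CPM in the double knockout and 46.8 CPM in the Apoe knockout and Igfbp2 with 19.1 CPM in the double knockout and 21.1 CPM in the Apoe knockout. Igfbp6 was the rarest, with 4 UMIs (0.584 CPM) in the double knockout and 83 UMIs (6.24 CPM) in the Apoe knockout. The rank order of the 5 genes was the same in both libraries. Of the 5, 1 was called over all cells, Igfbp6, which was lower, against a background of 22.7% of 13257 genes. Its ratio was 0.0936 (interval 0.0249 to 0.249). In the Apoe knockout 39 of the 83 UMIs were in 1 cell; the ratio was 0.0880 and still called without the highest cells, and 0.493 and not called, on 2 UMIs in the double knockout and 5 UMIs in the Apoe knockout, with cells thinned to 1000 UMIs and shallower cells left out.

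**Figure D1:**
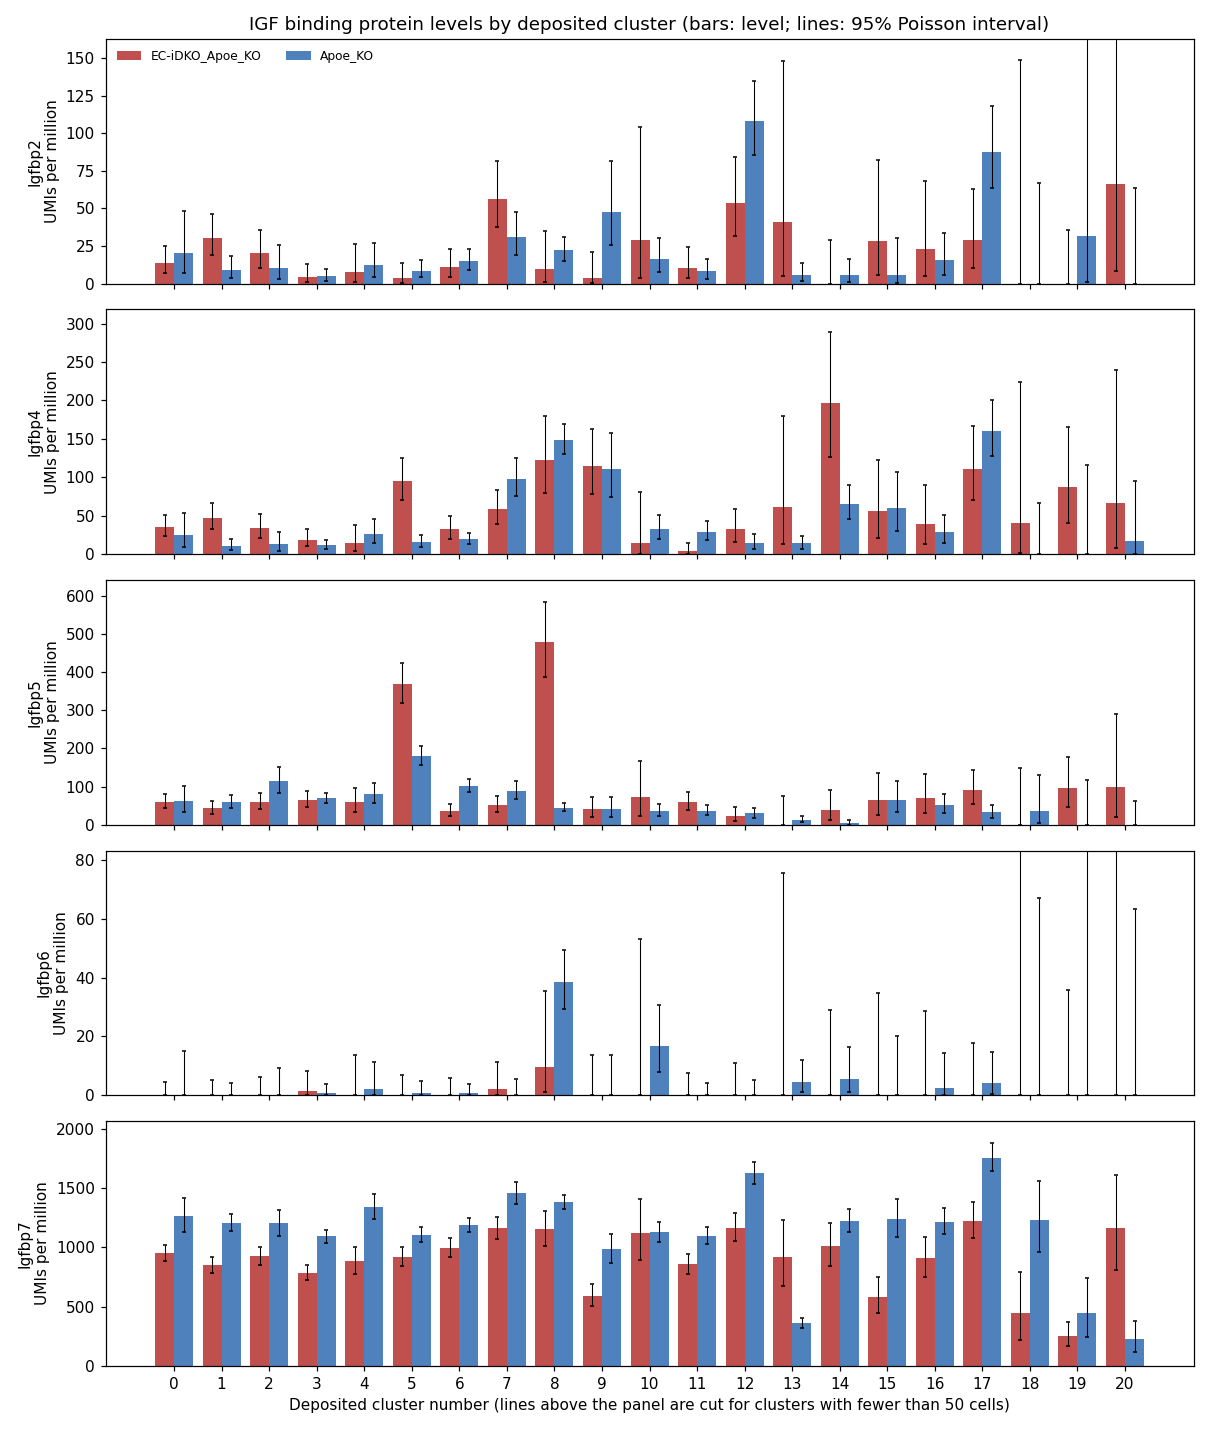
Level of the 5 genes, in CPM, in each deposited cluster, with the double knockout (red) left of the Apoe knockout (blue) and 95% Poisson intervals as lines. Igfbp7 is present throughout, Igfbp5 stands out in cluster 5 and in cluster 8 of the double knockout, and Igfbp2 in cluster 12 and Igfbp6 in cluster 8 of the Apoe knockout; lines of clusters with fewer than 50 cells may run off the panel.

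Across the 18 clusters with enough cells, 54 pairs of member and cluster could be compared. Of these, 8 were called higher, 11 lower and 35 not called. Among all genes in the same clusters, 7.84% of pairs were higher, 6.77% lower and 14.6% either. In the SMC class, the largest with 4407 double knockout and 1536 Apoe knockout cells, 1 of the 4 members with enough UMIs was called, and it was higher, against 10.5% higher, 7.52% lower and 18.1% in either direction among 12000 genes.

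**Figure D2:**
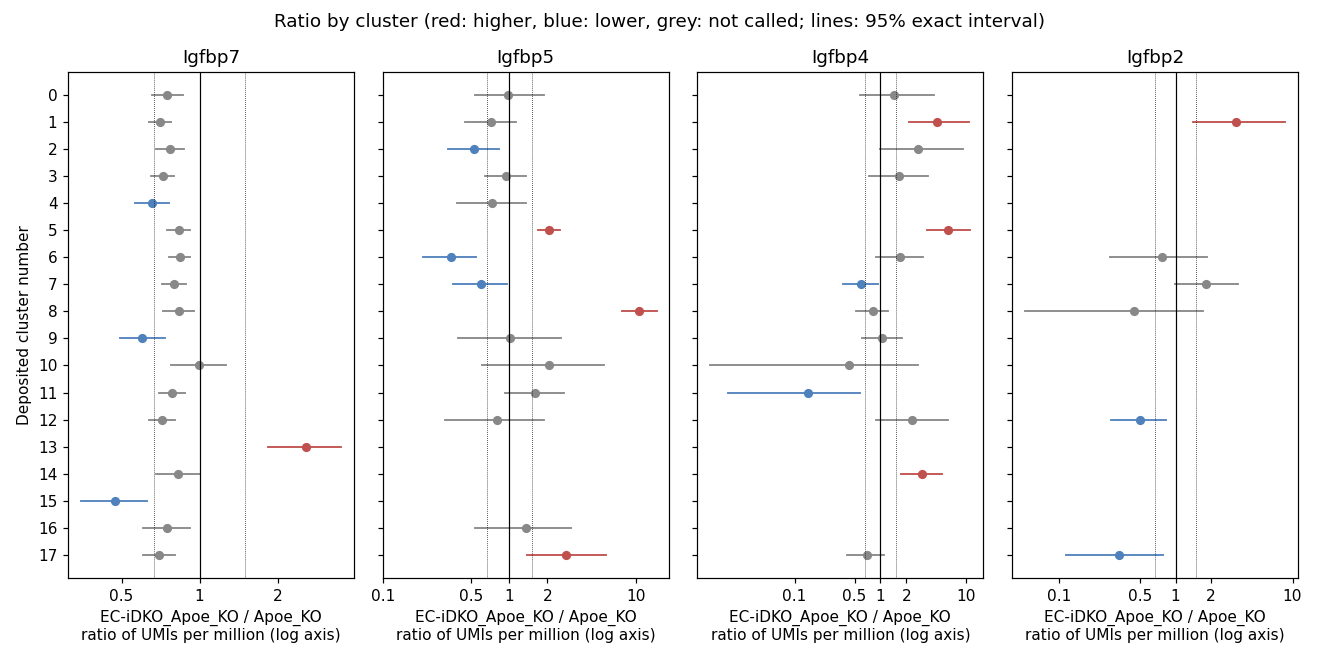
Ratio of the double knockout to the Apoe knockout level (log axis) for 4 genes in each cluster with at least 20 UMIs of the gene over both libraries, with 95% exact intervals. The Igfbp7 points lie below 1 in 17 of 18 clusters, between 0.471 and 0.997, while those of Igfbp5 run between 0.345 and 10.7.

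Igfbp7 was found in every cluster, mostly at a lower level in the double knockout. In the SMC class it stood at 919 CPM in the double knockout and 1232 CPM in the Apoe knockout, a ratio of 0.746 (interval 0.721 to 0.771) that is short of the fold needed for a call. The ratio was below 1 in 17 of 18 clusters, with a median of 0.759, and 3 clusters were called lower and 1 higher. All these ratios come from the same 2 libraries and are not independent of each other. Without the highest cell of each library, Igfbp7 in cluster 14 was called lower too (ratio 0.663, interval 0.530 to 0.823), and cluster 4 lost its call. Both libraries had their highest level in cluster 17, a smooth muscle cluster led by Tnnt2 and Des, with 1225 CPM in the double knockout and 1756 CPM in the Apoe knockout. Cluster 12, smooth muscle with elastin (Eln) among its leading genes, came next with 1166 CPM in the double knockout and 1626 CPM in the Apoe knockout. Of 18 neighbouring steps in the order of 19 clusters, the double knockout had 2 whose ratio interval did not hold 1, and the Apoe knockout had 2 of 17. When each cell was thinned to 1000 UMIs and shallower cells were left out (2884 in the double knockout, 96 in the Apoe knockout), 59.9% of double knockout and 67.4% of Apoe knockout SMC cells had an Igfbp7 UMI. Unthinned, the shares were 57.0% in the double knockout and 91.5% in the Apoe knockout.

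The Igfbp7 calls lay mostly outside contractile smooth muscle. In the endothelial cluster 9, where 16.1% of all genes were called, it had 160 UMIs (593 CPM) in the double knockout and 268 UMIs (986 CPM) in the Apoe knockout, a ratio of 0.602 (interval 0.492 to 0.735). In that cluster the endothelial marker list stood at 3600 CPM in the double knockout and 1924 in the Apoe knockout, and the macrophage list at 14.8 CPM in the double knockout and 1868 CPM in the Apoe knockout. In cluster 15 Igfbp7 had 583 CPM in the double knockout and 1239 CPM in the Apoe knockout (ratio 0.471), beside the adipocyte difference given above. Of all genes in that cluster 37% were called, 22.7% lower and 14.3% higher. By label, 59 of its 80 double knockout cells were SMC and 16 modEC. Of its 80 Apoe knockout cells, 20 were SMC and 39 modEC. In cluster 4, 14.5% of all genes were called. There Igfbp7 had 882 CPM in the double knockout and 1343 CPM in the Apoe knockout (ratio 0.657). That call was lost without the highest cell of each library (ratio 0.668) and with ratios scaled to the median gene (ratio 0.680). The part of these other cell types in the Igfbp7 ratios was not tested.

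In the macrophage cluster 13 the direction was the other one. Igfbp7 had 45 UMIs in 53 cells (922 CPM) in the double knockout and 311 UMIs in 144 cells (360 CPM) in the Apoe knockout, a ratio of 2.56 (interval 1.83 to 3.51; 13.9% of all genes were called there). Relative to the SMC class of the same library, that is 100.3% in the double knockout and 29.2% in the Apoe knockout, beside 64.7% in the double knockout and 24.0% in the Apoe knockout for the contractile genes, which macrophages are not known to express. The macrophage markers of this cluster stood at 3544 CPM in the double knockout and 11457 CPM in the Apoe knockout. The part of smooth muscle RNA in the Igfbp7 count of this cluster was not tested.

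**Figure D3:**
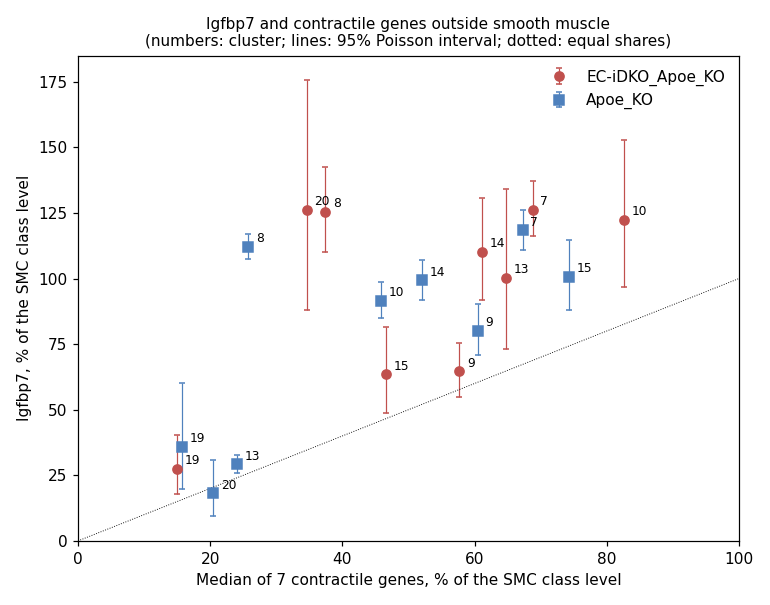
Igfbp7 (vertical, with 95% Poisson intervals) against the median of 7 contractile genes (horizontal) in clusters outside contractile smooth muscle, both as a percent of the SMC class level of the same library. Most points lie above the dotted line of equal shares, cluster 8 farthest from it in the Apoe knockout (112% against 25.7%), and cluster 13 lies near the line in that library (29.2% against 24.0%).

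Of clusters 7, 8, 9, 10, 13, 14 and 15, those outside contractile smooth muscle that were compared between libraries, Igfbp7 exceeded the contractile genes most in cluster 8. It reached 125% of the SMC class level in the double knockout and 112% in the Apoe knockout there, while the contractile median was 37.4% in the double knockout and 25.7% in the Apoe knockout. In cluster 19, endothelial cells led by Sema3g with 67 double knockout and 9 Apoe knockout cells, it was at 27.4% in the double knockout and 35.9% in the Apoe knockout, beside 15.0% in the double knockout and 15.7% in the Apoe knockout for the contractile genes. Among clusters of at least 50 cells, the lowest Igfbp7 levels were those of this cluster in the double knockout, at 252 CPM, and of the macrophage cluster in the Apoe knockout, at 360 CPM. Cluster 20 had 27 double knockout and 26 Apoe knockout cells and was not compared. Its Igfbp7 was at 126% of the SMC class level in the double knockout, on 35 UMIs, beside 34.6% for the contractile genes. In the Apoe knockout it was at 18.1%, on 13 UMIs, beside 20.4%.

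Igfbp5, the most conserved family member and one that binds matrix, was highest in clusters 8 and 5 of the double knockout and in cluster 5 of the Apoe knockout. Cluster 5 is smooth muscle led by Rgs5, a regulator of G protein signalling that marks pericytes and some arterial smooth muscle, with Igfbp5 second among its leading genes and Hoxc10 and Hoxa10, transcription factors of posterior identity, among the next. It held 198 Igfbp5 UMIs (368 CPM) in 278 double knockout cells and 209 UMIs (180 CPM) in 181 Apoe knockout cells. These were 31.7% of all Igfbp5 UMIs of the double knockout and 23.7% of those of the Apoe knockout. The ratio was 2.05 (interval 1.68 to 2.50; 13.3% of all genes in the cluster were called). After thinning, 22.5% of 173 double knockout cells and 13.8% of 174 Apoe knockout cells had an Igfbp5 UMI; unthinned, 27.3% in the double knockout and 32.0% in the Apoe knockout did. Without the highest cell of each library the ratio was 2.03. The pericyte list had 6302 CPM in the double knockout and 7302 CPM in the Apoe knockout, and the contractile list 47565 CPM in the double knockout and 46381 CPM in the Apoe knockout.

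Cluster 8 had the largest ratio of any pair. Igfbp5 had 98 UMIs (479 CPM) in 148 double knockout cells and 69 UMIs (44.9 CPM) in 184 Apoe knockout cells, a ratio of 10.7 (interval 7.76 to 14.7; 13.1% of all genes there were called). The UMIs came from 21 double knockout and 20 Apoe knockout cells, and the 5 highest cells held 48.0% of them in the double knockout and 73.9% in the Apoe knockout. The ratio was 13.4 without the highest cell of each library, 6.33 after thinning, and 4.91 in cells filtered at 1000 UMIs and 10% mitochondrial UMIs; each was called. After thinning, 6 of 51 double knockout cells (11.8%, interval 4.44 to 23.9) held 22 Igfbp5 UMIs, and 6 of 176 Apoe knockout cells (3.41%, interval 1.26 to 7.27) held 12. Unthinned, the shares were 14.2% in the double knockout and 10.9% in the Apoe knockout, at median depths of 822 UMIs in the double knockout and 4713 UMIs in the Apoe knockout. Macrophages of cluster 13, which should lack the gene, had an Igfbp5 UMI in 0 of 53 unthinned double knockout cells. The floor of 3 UMIs is 5.66% of these cells. It is not an interval limit and sets no limit on cells expressing the gene at this depth. In the Apoe knockout 7.64% of 144 macrophages had an Igfbp5 UMI. Median depths were 696 UMIs in the double knockout and 4565 UMIs in the Apoe knockout. Thinned, the shares were 0 of 15 double knockout cells and 2.16% of 139 Apoe knockout cells. The make-up of the cluster differed as well. Its modulated smooth muscle list had 15767 CPM in the double knockout and 29994 in the Apoe knockout, its fibroblast list 5259 CPM in the double knockout and 15040 CPM in the Apoe knockout, and its contractile list 17584 CPM in the double knockout and 11989 CPM in the Apoe knockout; their part in the Igfbp5 ratio was not tested.

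Elsewhere Igfbp5 was mostly even or lower. In the SMC class as a whole it had 470 UMIs (84.3 CPM) in the double knockout and 712 UMIs (82.6 CPM) in the Apoe knockout, a ratio of 1.02 (interval 0.906 to 1.15). In cluster 6, smooth muscle led by Carmn, Mylk4 and Myh11, it had 35.4 CPM in the double knockout and 103 CPM in the Apoe knockout (ratio 0.345, interval 0.209 to 0.542), and 0.167 after thinning. In cluster 2 it had 59.6 CPM in the double knockout and 113 CPM in the Apoe knockout (ratio 0.526), which was not called after thinning (ratio 0.642) or in the filtered cells (ratio 0.817). Cluster 7 had 52.2 CPM in the double knockout and 87.5 CPM in the Apoe knockout (ratio 0.597), but 30 of its 57 Apoe knockout UMIs were in 1 cell and the ratio was 1.04 without the highest cells. Cluster 17 had 91.6 CPM in the double knockout and 32.6 CPM in the Apoe knockout (ratio 2.81), with 12 of 19 double knockout UMIs in 1 cell and a ratio of 1.28 without the highest cells. The class-wide ratio near 1 thus stands beside opposite ratios in its clusters.

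Igfbp4, a binding protein that inhibits IGF action until the protease PAPP-A cuts it, was the 1 member of the family called in the SMC class. It had 222 UMIs (39.8 CPM) in the double knockout and 220 UMIs (25.5 CPM) in the Apoe knockout, a ratio of 1.56 (interval 1.29 to 1.89), and of 2.53 after thinning. The ratio was 6.12 (interval 3.51 to 11.1) in cluster 5, with 94.8 CPM in the double knockout and 15.5 CPM in the Apoe knockout, and 4.54 (interval 2.13 to 10.8) in cluster 1, with 47.2 CPM in the double knockout and 10.4 CPM in the Apoe knockout. Both held without the highest cell of each library, at 7.64 and 4.97; after thinning cluster 1 was left with 9 UMIs in the double knockout and 1 UMI in the Apoe knockout and no call. Cluster 5 was therefore higher for Igfbp4 as well as Igfbp5. In the double knockout 33 of its 278 cells had Igfbp4 and 76 had Igfbp5. There 14 cells had UMIs of both, where the product of the shares gives 9.02 cells. In the Apoe knockout 3 of its 181 cells had both, where the product gives 3.20.

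The highest Igfbp4 levels were in other clusters. In the double knockout cluster 14 led with 196 CPM, but 13 of its 25 UMIs were in 1 cell, and its ratio of 3.02 to the 64.9 CPM of the Apoe knockout was 1.81 and not called without the highest cells. In cluster 17 the level was 111 CPM in the double knockout and 161 CPM in the Apoe knockout, and in cluster 8 it was 122 CPM in the double knockout and 149 CPM in the Apoe knockout, the highest levels of the Apoe knockout library. Endothelial cluster 9 was even, with 31 UMIs (115 CPM) in the double knockout and 30 UMIs (110 CPM) in the Apoe knockout (ratio 1.04, interval 0.610 to 1.78). Igfbp4 was lower in cluster 7 (58.2 CPM in the double knockout and 98.2 CPM in the Apoe knockout, ratio 0.593, and 0.323 after thinning) and in cluster 11 (2 UMIs in the double knockout and 25 UMIs in the Apoe knockout, ratio 0.145), where 10 of the 25 Apoe knockout UMIs were in 1 cell and, without the highest cells, the ratio was 0.120 (interval 0.00286 to 0.783) on fewer than the 20 UMIs asked for a call.

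Igfbp2, a binder that also attaches to integrins, led 1 smooth muscle cluster. It was the first of the leading genes of cluster 12, ahead of Itga5, the integrin chain that pairs with beta 1, and of Prss23, Ankrd1, S100a4 and Eln. As the cluster was formed on these cells, that is a description. It had 18 UMIs (53.3 CPM) in 162 double knockout cells and 77 UMIs (108 CPM) in 90 Apoe knockout cells, a ratio of 0.493 (interval 0.278 to 0.832; 13.1% of all genes in the cluster were called), and 0.527 without the highest cells; thinning left 2 UMIs in the double knockout and 8 UMIs in the Apoe knockout and no call. In cluster 17 it had 6 UMIs in the double knockout and 43 UMIs in the Apoe knockout (28.9 CPM in the double knockout and 87.5 CPM in the Apoe knockout, ratio 0.331), with 16 of the 43 in 1 cell and a ratio of 0.258 without the highest cells; thinning left 1 UMI in the double knockout and 4 UMIs in the Apoe knockout and no call. In the double knockout the highest level was in cluster 7, with 56.2 CPM against 30.7 CPM in the Apoe knockout (ratio 1.83, not called). There 75.0% of the 20 Apoe knockout UMIs were in 1 cell, and the ratio was 6.18 and called higher without the highest cells. Cluster 1, which was led by Pf4 and haemoglobin genes, was higher, with 22 UMIs (30.6 CPM) in the double knockout and 8 UMIs (9.24 CPM) in the Apoe knockout (ratio 3.31, interval 1.42 to 8.59). In the SMC class the values were 17.2 CPM in the double knockout and 22.7 CPM in the Apoe knockout (ratio 0.757, interval 0.587 to 0.972), not called, and the ratio was 1.08 after thinning. In the endothelial cluster 9 there was 1 UMI in the double knockout and 13 in the Apoe knockout, 10 of them in 1 cell.

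Igfbp6, which prefers IGF2 and is made by many fibroblasts, was found mainly in cluster 8 of the Apoe knockout. Of its UMIs, 2 of 4 in the double knockout and 59 of 83 in the Apoe knockout were there, at 9.77 CPM in the double knockout and 38.4 CPM in the Apoe knockout (ratio 0.255, interval 0.0301 to 0.961). As 39 of the 59 were in 1 cell, the call did not hold without the highest cells, which left 0 UMIs in the double knockout and 20 UMIs in the Apoe knockout. Cluster 10 had 0 UMIs in 94 double knockout cells, against 10 UMIs in 167 Apoe knockout cells.

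**Figure D4:**
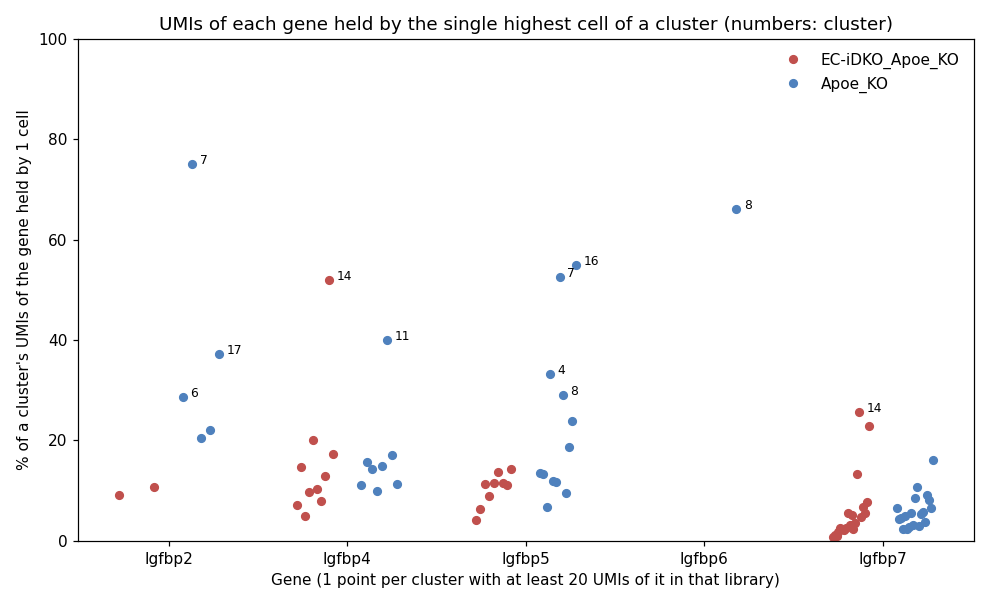
Percent of the UMIs of a gene in a cluster that 1 cell held, for each cluster and library with at least 20 UMIs of the gene, with the double knockout (red) left of the Apoe knockout (blue). No cell held more than 25.6% of the Igfbp7 UMIs; 1 double knockout cell held 52.0% of the Igfbp4 UMIs of cluster 14, and single Apoe knockout cells held 75.0% of those of Igfbp2 in cluster 7, 55.0% of those of Igfbp5 in cluster 16 and 66.1% of those of Igfbp6 in cluster 8.

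Without the highest cell of each library, 13 of the 19 called pairs kept their call. Of the other 6, Igfbp4 in cluster 11 kept its fold and fell under the minimum of 20 UMIs, and Igfbp7 in cluster 4, Igfbp5 in clusters 7 and 17, Igfbp6 in cluster 8 and Igfbp4 in cluster 14 no longer met the fold or the interval. Between members, 24 of 4407 double knockout SMC cells had UMIs of both Igfbp4 and Igfbp5, where the product of the shares gives 11.8 cells, and 28 of 1536 Apoe knockout cells did, where it gives 23.5. For Igfbp2 and Igfbp4 10 double knockout cells had both, where the product gives 3.39, and 21 Apoe knockout cells did, where it gives 6.99. The neighbouring genes Igfbp2 and Igfbp5 went the other way. Both were found in 3 double knockout cells, where the product gives 5.42, and in 16 Apoe knockout cells, where it gives 18.1. Deeper cells show more of every gene, so these counts are a description.

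The genes whose levels followed each member most closely across clusters were ranked by the smaller of the 2 libraries' Pearson correlations of log2(CPM + 10), over 19 double knockout and 18 Apoe knockout clusters and 4603 genes. Clusters of 1 library share its depth and its free RNA. For Igfbp7 these were Aebp1 (r = 0.947 in the double knockout and 0.958 in the Apoe knockout), Qsox1, Mtus2, Ccn2 and Lhfp. For Igfbp4 they were Ifitm3, Tmem176b, Cd34, Tmem176a and Tulp4, with r between 0.569 and 0.719. For Igfbp5 they were Daam1, Adamts5, Secisbp2l, Lama5 and Pdxdc1, with r between 0.514 and 0.687. Igfbp6 was nearest to Dcn, Lum, Timp1, Ugdh and Slc7a2, and Igfbp2 to Tnnt2, S100a6, Mrpl51, Uchl1 and Elob. Neither reached the 200 UMIs in each library asked of the others. Igfbp2 had 131 UMIs in the double knockout and 281 in the Apoe knockout. Igfbp6 had 4 in the double knockout and 83 in the Apoe knockout. Cluster 8, led by Dcn, Lum and Timp1, held 2 of the 4 and 59 of the 83, with 39 in 1 cell. The likeness of Igfbp6 to these 3 genes is thus mostly a description of that cluster.

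The rest of the IGF axis gives the setting. Of 31 genes listed as ligands, receptors, other binding proteins, proteases and their inhibitors, surface partners and adaptors, 28 had a column, and 24 had enough UMIs in the SMC class. There 4 were higher and 3 lower, where 10.5% of all genes were higher, 7.52% lower and 18.1% either, and the median log2 ratio was 0.08, beside 0.03 over all 12000 genes with enough UMIs. Igf1r, the signalling receptor, had 686 UMIs (123 CPM) in the double knockout and 1668 UMIs (194 CPM) in the Apoe knockout, a ratio of 0.636 (interval 0.581 to 0.695). Irs2, the insulin receptor substrate 2 (ratio 0.643), and Ptprz1, a receptor phosphatase (ratio 0.636), were lower as well. Stc1, which encodes stanniocalcin 1, an inhibitor of PAPP-A (ratio 2.62), and Tmem219, a death receptor for IGFBP3 (ratio 1.59), were higher. The receptors Igf2r (ratio 1.12) and Insr (ratio 0.921) were not called.

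The ligands were highest outside the main smooth muscle clusters. Igf1 had 3 UMIs (61.5 CPM) in the double knockout and 237 UMIs (274 CPM) in the Apoe knockout in macrophage cluster 13. In cluster 15 it had 33 UMIs (310 CPM) in the double knockout and 10 UMIs (54.4 CPM) in the Apoe knockout, beside the adipocyte genes of the double knockout there. In the SMC class, which holds 59 double knockout and 20 Apoe knockout cells of cluster 15, it had 61 UMIs (10.9 CPM) in the double knockout and 13 UMIs (1.51 CPM) in the Apoe knockout, a ratio of 7.25. Igf2 was highest in endothelial cells. It had 727 CPM in cluster 19 of the double knockout, where the 9 Apoe knockout cells had 8 UMIs, and in cluster 9 it had 17 UMIs (63.0 CPM) in the double knockout and 6 UMIs (22.1 CPM) in the Apoe knockout, a ratio of 2.86 (interval 1.07 to 8.85). In the SMC class it had 6.28 CPM in the double knockout and 3.36 CPM in the Apoe knockout (ratio 1.87).

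**Figure D5:**
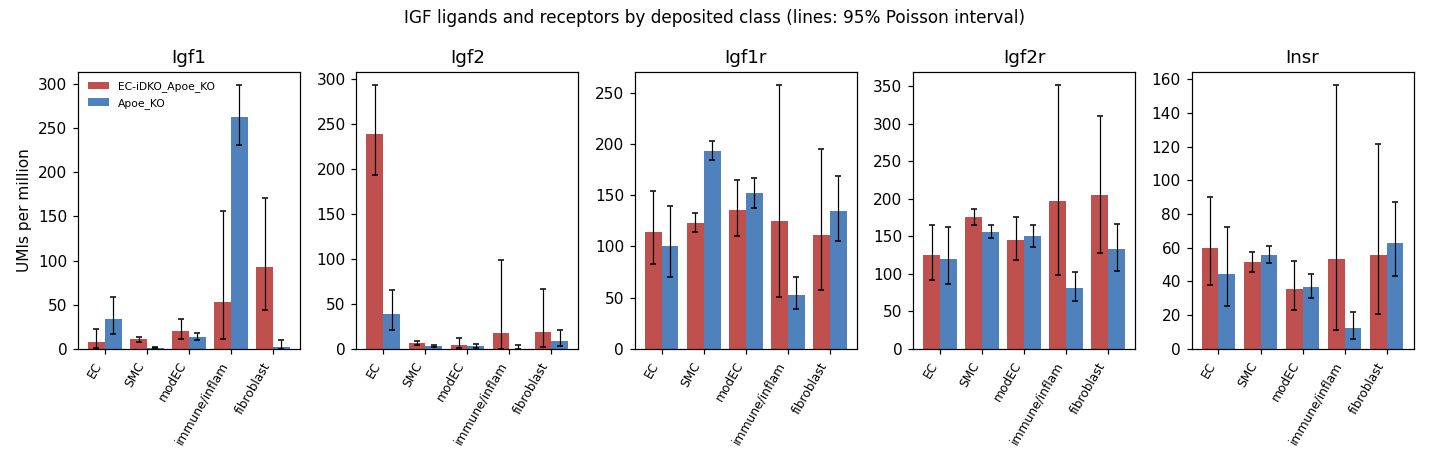
Levels of the 2 IGF ligands and 3 receptors in the deposited classes, in CPM, with the double knockout (red) left of the Apoe knockout (blue) and 95% Poisson intervals. Igf1 stands out in the immune/inflam class of the Apoe knockout and Igf2 in the EC class of the double knockout, while Igf1r, Igf2r and Insr are present in every class.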

How the data were processed

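Cells of digested aortas were captured with 10x droplets and 3′ tags, per the labels' protocols, which also name CD31 microbeads although the cell type label covers the whole digest. The submitters' processing notes name Cell Ranger, Seurat and mm10; tool versions: not given in the sources used here. What was deposited is a table of counts (UMIs per cell and gene). The authors' mitochondrial ratio is a fraction. The authors also gave a class name and a cluster number per cell (unit: other).

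Each barcode was counted once. UMIs were summed per class or cluster and library and scaled to CPM. Intervals were exact Poisson for levels, conditional binomial for ratios and Clopper-Pearson for shares (Python 3.11.15, scipy 1.17.1), all for counting error only. The rule for calls was tried on simulated counts that held counting error only. They had no spread between cells or mice, so the trial cannot say how often such spread gives a call. Doublets were not called. A floor of 3 UMIs stood in for a count of 0, and a ratio against it is a bound. Such bounds can enter the shares of all genes called. For named genes no ratio is given against a count of 0.

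The genes, gene lists and comparisons were chosen with earlier results of these data known. The 5 genes are named in every case, axis genes where they had at least 20 UMIs, and 5 like genes per member. Leading genes of clusters, Epn1 and Epn2 were named outside that rule.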

Additional observations from a re-analysis of the deposited data

Results flagged for a closer look

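The ratio of the double knockout to the Apoe knockout went in opposite directions in different clusters for 4 genes; the difference between clusters was not tested. Igfbp5 had a ratio of 10.7 in cluster 8 and 0.345 in cluster 6. Igfbp4 had 6.12 in cluster 5 and 0.145 in cluster 11, the second with 2 UMIs in the double knockout and 25 in the Apoe knockout. Igfbp2 had 3.31 in cluster 1 and 0.331 in cluster 17. Igfbp7 had 2.56 in cluster 13 and 0.471 in cluster 15. Of all genes, 13.9% were called in cluster 13 and 37% in cluster 15. In cluster 13 the contractile genes stood at 64.7% of the SMC class level in the double knockout and 24.0% in the Apoe knockout. In cluster 15 they stood at 46.7% in the double knockout and 74.3% in the Apoe knockout.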

How the results depend on the processing

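No paired analysis was possible because there was 1 library per genotype. A filter at 1000 UMIs per cell and 10% mitochondrial UMIs left 1775 double knockout and 1965 Apoe knockout cells. Of the 54 pairs, 34 could then be compared, with 12 called and 6 lower. It moved Igfbp5 in the SMC class to 1.19, Igfbp5 in cluster 8 to 4.91, Igfbp7 in the SMC class to 0.775 and in cluster 9 to 0.485. Thinning to 1000 UMIs left 21 pairs, with 7 called, 3 higher and 4 lower, and gave Igfbp2 in the SMC class a ratio of 1.08, Igfbp4 2.53 and Igfbp7 0.783, Igfbp5 in cluster 5 a ratio of 2.61 and in cluster 8 of 6.33, and Igfbp7 in cluster 9 of 0.476. Of the 19 main calls, 7 could still be compared after thinning, and 6 of these kept their call. After the filter 13 could be compared and 11 kept theirs. The other calls could not be checked in these settings. A minimum of 100 UMIs left 24 pairs, with 7 called, 3 higher and 4 lower. A fold of 2 kept 14 of the 19 calls, all 8 that were higher and 6 of the 11 that were lower. The 14.6% of all pairs called belongs to the main rule. The share of all genes called was not computed in the other settings, so the counts there have no background beside them. Igfbp5 in cluster 7 turned to 2.33 after thinning, on 9 UMIs in the double knockout and 3 in the Apoe knockout, and to 1.04 without the highest cells, a check added after seeing the data, which also counted 16 called pairs, 13 of them shared. All 19 calls held with mitochondrial, ribosomal protein and haemoglobin genes left out of the total and with the second copy of each barcode, and 18 held with ratios scaled to the median gene. Of the 5 genes most like each member, a pseudocount of 1 kept 5 for Igfbp7, 4 each for Igfbp4 and Igfbp6, 3 for Igfbp2 and 2 for Igfbp5. Spearman correlation kept 1 each, and 0 for Igfbp6. Clusters of at least 20 cells kept 3 each for Igfbp4 and Igfbp6 and 0 each for Igfbp2, Igfbp5 and Igfbp7.

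Depth limits the shares of cells: 34.0% of double knockout and 94.6% of Apoe knockout cells had at least 1000 UMIs.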
